A study of Mus musculus with 4 samples.

Results

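EN13 is one of 13 subtypes into which the authors' deposited annotation divided the excitatory neurons of the mouse superior colliculus. Its members were the nuclei whose deposited subtype was EN13, which were 133 of 9724 nuclei in the series and 133 of 4093 excitatory nuclei. Nuclear RNA was sequenced from superior colliculus of C57BL/6J mice at embryonic day 19 (E19) and postnatal days 4, 8 and 21 (P4, P8 and P21), with 1 library a stage. All groups shared that strain, with no treatment or mutation in the labels, and each library pooled tissue of several animals. The sources used here give neither how many animals nor their sexes. The design text abbreviates the embryonic stage as E10, while the title and the stage label give E19, which was used. The E19 library contributed 21 EN13 nuclei, P4 22, P8 53 and P21 37.

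The superior colliculus is a layered midbrain structure that receives retinal, cortical and other sensory input and drives orienting movements. Its excitatory neurons release glutamate, which is loaded into synaptic vesicles by VGLUT2, the product of Slc17a6. Neurons of different depth and projection are told apart by combinations of transcription factors, adhesion molecules and receptors, and many of these genes are regulated while axons and synapses form around birth.

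With 1 library a stage, no difference between stages could be tested, and stage and library cannot be told apart. A subtype is drawn from the genes of its own nuclei, so values of EN13 against other neurons describe the group and are no test of it. Levels are counts of unique molecular identifiers (UMIs) per 1000000 UMIs of the summed nuclei (CPM), and all intervals are at the 95% level and cover counting error only. From E19 to P21, in stage order as in all lists of 4 values below, the EN13 nuclei held 158022, 185156, 689288 and 574972 UMIs, and 1 UMI stood for 6.33, 5.40, 1.45 and 1.74 CPM. Their median depth was 7622, 7700, 12229 and 14538 UMIs per nucleus, below the 8061, 11828.5, 14393 and 19805 UMIs of the other excitatory nuclei at the same stages. The libraries shared 9 barcodes (18 nuclei), none of them in EN13.

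Slc17a6, the transmitter gene that defines the class, was at a like level in EN13 and in the other excitatory neurons. It stood at 361, 221, 160 and 177 CPM in EN13, and at 285, 241, 183 and 176 CPM in the other excitatory neurons. At least 1 Slc17a6 UMI was found in 112 of 133 EN13 nuclei (84.2%, interval 76.88 to 89.95) and in 87.4% of other excitatory nuclei, against 19.2% of inhibitory and 16.4% of oligodendrocyte-lineage nuclei. The median depths of these sets were 11433, 11601, 8805 and 5553 UMIs. After each nucleus was thinned to 2000 UMIs, which left out no nucleus, these shares were 36.1%, 36.2%, 5.72% and 7.82%. Slc17a7, which encodes VGLUT1, was found in 0 of 133 EN13 nuclei over all stages. At 3 counts over the 133 this allows a share of nuclei with a UMI of up to 2.26% and sets no limit on nuclei that express the gene. Slc17a8 (VGLUT3) was found in 2.

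Genes of inhibitory transmission were found in fewer EN13 than inhibitory nuclei. The Gad2 level in CPM stood above that of the other excitatory neurons, most at E19 and P21, but the E19 excess came mostly from a single nucleus. Gad1, which makes GABA, stood at 50.6, 27.0, 13.1 and 10.4 CPM in EN13, Gad2 at 88.6, 27.0, 14.5 and 31.3 CPM, and the vesicular GABA transporter Slc32a1 at 25.3, 10.8, 14.5 and 5.22 CPM. The other excitatory neurons held 23.6, 16.9, 15.8 and 12.8 CPM of Gad1 and 22.9, 20.5, 11.9 and 16.2 CPM of Gad2. At least 1 Gad2 UMI was found in 21.8% of EN13 nuclei, 15.1% of other excitatory and 91.7% of inhibitory nuclei. At P21 these shares were 35.1% (interval 20.2 to 52.5), 20.9% and 94.2%. At E19 they were 9.52% (2 of 21 nuclei, interval 1.17 to 30.4), 11.8% and 89.6%, so there the EN13 share was not the higher one. After the thinning described above, the Gad2 shares over all stages were 2.26% (interval 0.468 to 6.45), 3.33% and 57.7%. The thinned share of EN13 was thus not above that of the other excitatory nuclei. A single E19 nucleus of EN13 held 19 UMIs of Gad1, Gad2 and Slc32a1 together. No other E19 nucleus of EN13 held 2 or more such UMIs, so most of the E19 Gad2 level came from this nucleus. Nuclei with 2 or more such UMIs made up 16 of the 133 (12.03%, interval 7.04 to 18.8) and 8.99% of the other excitatory nuclei. Leading genes recomputed without these 16 nuclei retained 19 of the 20 named below.

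The deposited table also gave each nucleus labels under the names Vectorseq and Transseq. The Vectorseq label 22 was given to 131 of the 133 nuclei (98.5%). Of the 256 neurons with that label in the series, 131 (51.2%) were EN13 and 112 (43.8%) were EN10, so most nuclei with it were of these 2 subtypes. Transseq divided EN13 between ESC2 (83 nuclei, 62.4%), ESC1 (44 nuclei, 33.1%) and ISC5 (6 nuclei, 4.51%). The ESC1 label fell on 13 of 21 nuclei at E19, 8 of 22 at P4, 17 of 53 at P8 and 6 of 37 at P21. In the deposited clustering, cluster 24 held 127 of the EN13 nuclei and 1 other neuron, and 6 EN13 nuclei lay in other clusters.

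EN13 was a small group whose share of excitatory nuclei was higher in the later libraries. In the E19 library it made up 1.57% of 1338 excitatory nuclei (interval 0.974 to 2.39), and in the P4 library 1.82% of 1206 (1.15 to 2.75). The P8 share was 6.11% of 867 (4.61 to 7.92) and the P21 share 5.43% of 682 (3.85 to 7.40). The intervals of E19 and P4 overlapped each other, as did those of P8 and P21, while neither early interval reached a later one. Of all neurons the shares were 0.941%, 1.13%, 2.71% and 2.60%, with early and late intervals again apart. Of all nuclei they were 0.812% (0.504 to 1.24), 0.922% (0.579 to 1.39), 2.12% (1.59 to 2.76) and 1.65% (1.16 to 2.26), and there the P21 interval overlapped those of E19 and P4. The counting intervals do not include variation between dissections, and the part of dissection in these shares was not tested.

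**Figure D1:**
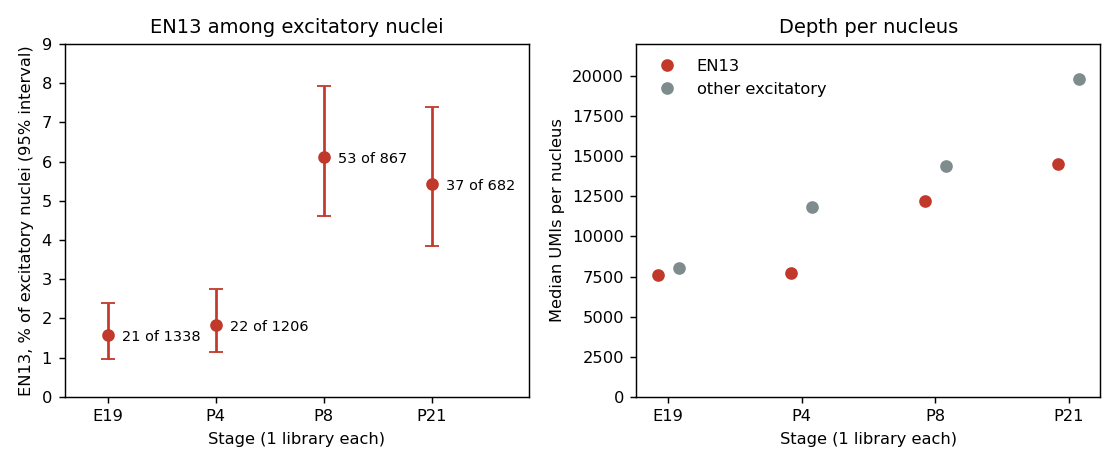
Left, EN13 nuclei as a percentage of all excitatory nuclei in each stage's library, with exact binomial 95% intervals and the counts beside each point: 1.57% and 1.82% at E19 and P4, and 6.11% and 5.43% at P8 and P21. Right, median UMIs per nucleus in EN13 and in the other excitatory neurons, which were lower in EN13 in each of the 4 libraries.

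Against the other excitatory neurons of the same library, EN13 was marked first of all by 2 transcription factor genes, Etv1 and Casz1. Genes were ranked by the lowest of their 4 log2 ratios (5 CPM added to both values), among genes averaging at least 100 CPM in EN13. Of 1926 such genes, 31 were higher by a log2 ratio of 1 or more in every stage (1.61%). In the reverse direction, 50 of 1907 genes (2.62%) were lower by as much in every stage, among genes averaging at least 100 CPM in the other excitatory neurons. The median ratio over the 1926 genes lay between 0.01 and 0.05 at each stage. These shares are descriptions of how the group was drawn.

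Etv1 encodes an ETS-family transcription factor, known elsewhere in the brain from layer 5 projection neurons, and lies on chromosome 12 at 38779380 to 38870484 (plus strand, GRCm38). In EN13 its level was 1006 CPM in the E19 library (interval 856 to 1175), 740 CPM in P4 (621 to 875), 778 CPM in P8 (713 to 846) and 456 CPM in P21 (402 to 514). In the other excitatory neurons the levels were 8.44, 15.4, 13.3 and 9.98 CPM, which gave folds of 119 (92.0 to 155), 48.2 (38.7 to 59.8), 58.6 (49.1 to 70.1) and 45.7 (37.1 to 56.5). EN13 was the highest of all neuron subtypes with at least 15 nuclei in each of the 4 libraries, and no interval of another excitatory subtype reached it. The next excitatory subtype was EN4 at E19 (55.0 CPM) and P8 (71.3 CPM), EN10 at P4 (102 CPM) and EN1 at P21 (23.2 CPM). At P21 Etv1 in EN13 was 2.21-fold lower than at E19 (1.80 to 2.70), while in the other excitatory neurons the log2 ratio of P21 to E19 was 0.16.

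Most EN13 nuclei held the Etv1 transcript. At least 1 Etv1 UMI was found in 127 of 133 nuclei (95.5%, interval 90.4 to 98.3), by stage in 18 of 21, 21 of 22, 53 of 53 and 35 of 37. The share was 8.06% in other excitatory nuclei, 4.28% in inhibitory and 24.9% in oligodendrocyte-lineage nuclei. At 2000 UMIs a nucleus these shares were 67.7%, 1.82%, 0.87% and 10.7%. Over all stages together, Etv1 also stood at 125 CPM in oligodendrocyte precursors and 161 CPM in microglia, against 681 CPM in EN13. Inside cluster 24, 122 of 127 EN13 nuclei held Etv1, with a median of 8 UMIs, and 5 of the 6 EN13 nuclei outside it held it too, with a median of 4.

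Casz1 encodes a zinc-finger transcription factor that controls the timing of neuronal fates in the retina (chromosome 4, 148804429 to 148954889, plus strand, GRCm38). Its levels in EN13 were 247, 281, 207 and 83.5 CPM, the last with an interval of 61.6 to 111, against 10.5, 10.4, 9.44 and 8.62 CPM in the other excitatory neurons. The folds were 23.6 (16.0 to 34.1), 27.0 (19.3 to 37.2), 22.0 (17.1 to 28.3) and 9.68 (6.78 to 13.6). EN10 was the next excitatory subtype in all 4 libraries, at 126, 102, 62.7 and 16.7 CPM. Casz1 was found in 98 of 133 EN13 nuclei (73.7%), 9.24% of other excitatory nuclei, 6.71% of inhibitory and 0.18% of oligodendrocyte-lineage nuclei, and at 2000 UMIs in 28.6%, 2.17%, 1.73% and 0.18%.

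Tfap2b, which encodes an AP-2 transcription factor of the early midbrain and neural crest, set EN13 apart from EN10 but not from EN4. Its levels in EN13 were 899, 508, 516 and 200 CPM, and 179, 103, 152 and 50.6 CPM in the other excitatory neurons together. EN4 held 837, 639, 577 and 164 CPM, so the order of EN13 and EN4 was not the same at all stages. EN10 held 69.5, 29.9, 8.35 and 3.71 CPM. Sorcs1, which encodes a sorting receptor of neuronal membranes, showed the reverse arrangement. It stood at 2759, 3284, 3264 and 2991 CPM in EN13 and at 707, 620, 942 and 821 CPM in the other excitatory neurons, with EN5 first or next at every stage (2407 to 3910 CPM), EN10 at 1741 to 2374 CPM and EN4 at 472 to 551 CPM.

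**Figure D2:**
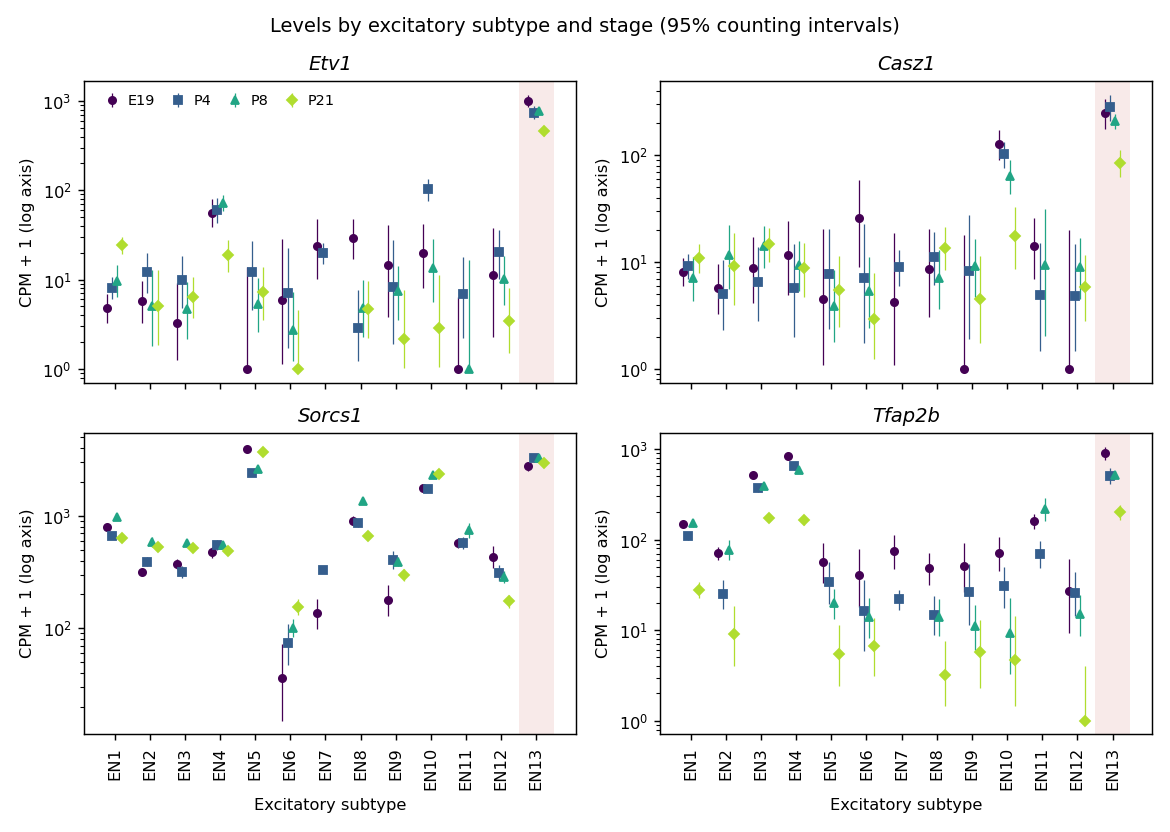
CPM plus 1 on a log axis for Etv1, Casz1, Sorcs1 and Tfap2b in each excitatory subtype with at least 15 nuclei, by stage, with 95% Poisson intervals and EN13 shaded. Etv1 was highest in EN13 at every stage, Casz1 was next highest in EN10, Sorcs1 was shared with EN5 and EN10, and Tfap2b with EN4 and EN3.

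The rest of the 20 leading genes covered other regulators of transcription, surface molecules and signalling enzymes. Among regulators, Tcf4 (a basic helix-loop-helix factor) was at 975, 659, 673 and 536 CPM in EN13 and at 206, 140, 146 and 155 CPM in the other excitatory neurons. Dach1, a transcriptional cofactor of eye and limb development, was at 835, 589, 789 and 680 CPM against 196, 161, 188 and 227 CPM. Tshz2, a zinc-finger homeobox gene, was at 3961, 3035, 3084 and 1790 CPM against 802, 522, 973 and 718 CPM. Tcf4 was next highest or highest in EN11 where that subtype had enough nuclei, and Dach1 was higher in EN10 and EN11 at P4 and in EN5 at P21. For Zfp536, a repressor of neuronal differentiation genes, EN13 ranked 4, 1, 3 and 2 among excitatory subtypes. The lncRNA Gm26883 lies antisense to Tshz2, and the sources used here do not say whether counting used the strand, so UMIs of this pair may be shared.

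Adhesion and guidance genes among the leading 20 were Cdh22, Sdk1, Kirrel and Epha7. Cdh22, a classical cadherin, was at 190, 189, 176 and 103 CPM in EN13 and at 43.5, 40.0, 27.5 and 23.9 CPM in the other excitatory neurons. Sdk1, an immunoglobulin-family protein that directs lamina-matched synapses in the retina, was at 2987, 1388, 1396 and 981 CPM against 557, 481, 362 and 205 CPM. Epha7, an ephrin receptor of retinocollicular mapping, was at 975, 670, 675 and 621 CPM against 246, 256, 277 and 228 CPM. Kirrel, a relative of nephrin, was at 234, 146, 147 and 103 CPM against 47.2, 47.7, 51.8 and 36.1 CPM. EN13 was the highest excitatory subtype for these 4 genes in every library. Among all neuron subtypes it ranked 4, 3, 5 and 5 for Cdh22 and 1, 4, 6 and 4 for Kirrel. The inhibitory subtype IN2 held 405, 375, 360 and 220 CPM of Cdh22.

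Signalling and other genes made up the remainder. Pde3a, a cyclic nucleotide phosphodiesterase, was at 683, 826, 547 and 477 CPM in EN13 and at 98.8, 94.6, 167 and 122 CPM in the other excitatory neurons. Rbms3, an RNA-binding protein gene, Plcl1, a phospholipase-related inositol phosphate binder, and Slc9a9, an endosomal sodium/proton exchanger, were also highest in EN13 among excitatory subtypes in every library, with lowest log2 ratios of 1.55, 1.26 and 1.25. Among all neuron subtypes, EN13 ranked 3 at E19 and 2 at P4 for Plcl1. Hgf, the ligand of the Met receptor, was at 120, 140, 251 and 90.4 CPM against 8.53, 15.6, 46.4 and 34.4 CPM, and ranked 1 in EN13 at the first 3 stages and 3 at P21, where EN9 held 125 CPM. The unnamed genes AC129186.1 and Gm45881 had lowest ratios of 1.49 and 1.46.

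Across the 20 leading genes, 13 were highest in EN13 among the excitatory subtypes in all 4 libraries and 7 were highest among all neuron subtypes: Etv1, Casz1, Pde3a, Rbms3, Gm45881, Epha7 and Slc9a9. In the 80 combinations of gene and stage, the next excitatory subtype was EN10 in 17, EN4 in 16 and EN5 in 12. A median of 19 of the 20 genes (range 11 to 20) was found in an EN13 nucleus and 10 (1 to 19) in another excitatory nucleus. At 2000 UMIs these medians were 12 (7 to 17) and 5 (0 to 12), so the ranges of single nuclei overlapped. The ESC1 and ESC2 nuclei within EN13 both held Etv1, at 1071 and 910 CPM at E19, 715 and 767 at P4, 789 and 782 at P8, and 522 and 444 at P21. Of the 20 genes, 17, 10, 14 and 10 were higher by any amount in the ESC1 nuclei at the 4 stages. These values rest on 13, 8, 17 and 6 ESC1 nuclei, and the share over all genes was not computed. Intervals overlapped for some genes, such as Casz1 at E19 (255 CPM, 163 to 379, against 235 CPM, 132 to 388), and lay apart for others. Those apart included AC129186.1 at E19 (1262 CPM, 1046 to 1511, against 424 CPM, 279 to 616). Tshz2 at P8 was another (3876 CPM, 3625 to 4139, against 2626 CPM, 2477 to 2782). No difference between the 2 labels was tested.

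**Figure D3:**
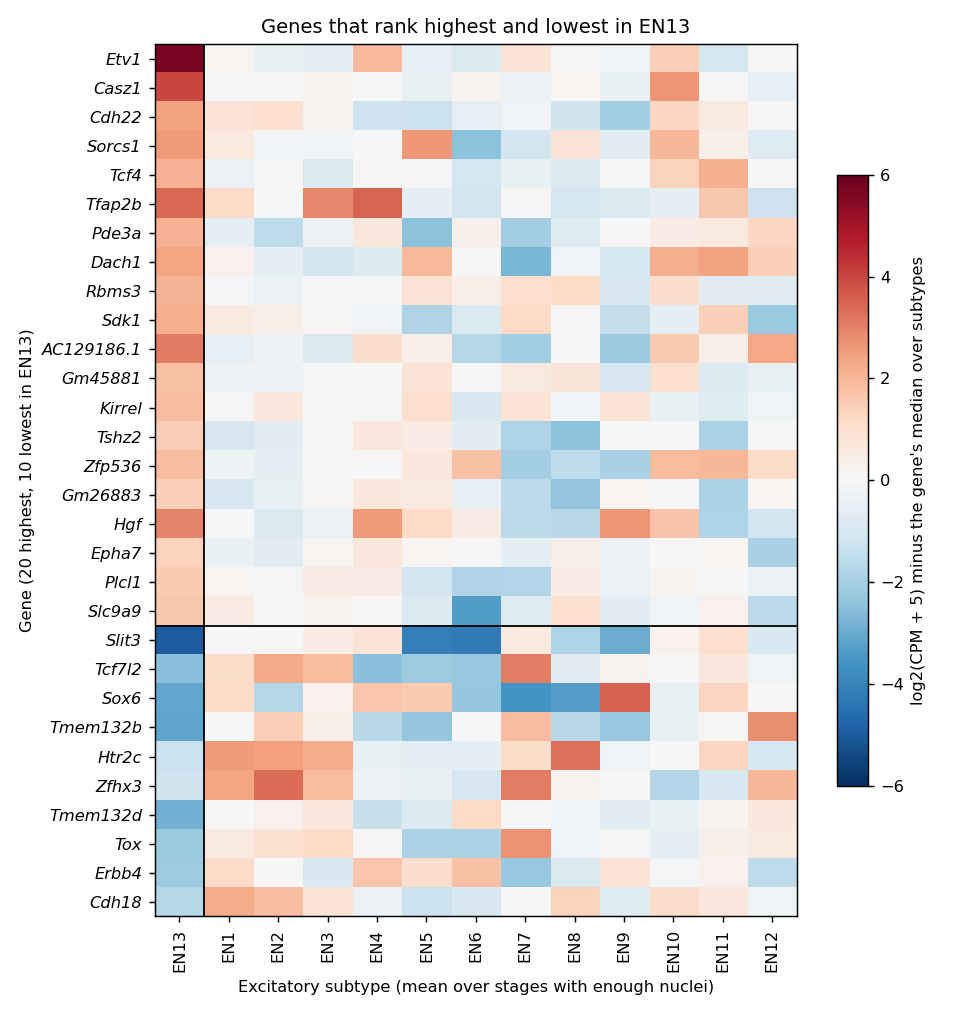
log2(CPM + 5) of the 20 genes ranked highest and the 10 ranked lowest in EN13 (rows, separated by a line) in the 13 excitatory subtypes, averaged over stages and centred on each gene's median over subtypes. Etv1 and Casz1 stand out in the EN13 column, while Tfap2b is shared with EN4, Sorcs1 with EN5 and EN10, and low Slit3 with EN5 and EN6.

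The genes lowest in EN13 included a guidance ligand, a Wnt effector and several receptor and adhesion genes. Slit3, a repellent ligand for Robo receptors (chromosome 11, 35121224 to 35708507, plus strand, GRCm38), gave 0, 0, 0 and 1 UMI in EN13 and 153, 185, 145 and 135 CPM in the other excitatory neurons. With 3 counts per library as the limit for 0, Slit3 was at least 8.07-fold, 11.4-fold and 33.3-fold lower at E19, P4 and P8. It was found in 1 of 133 EN13 nuclei (0.75%), 33.2% of other excitatory nuclei, 23.4% of inhibitory and 12.9% of oligodendrocyte-lineage nuclei, and at 2000 UMIs in 0%, 16.4%, 11.6% and 5.82%. The low level was not limited to EN13: at E19 and P21, other excitatory subtypes were as low or lower.

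Tcf7l2, the Wnt-pathway factor of thalamic and tectal neurons, was at 75.9, 48.6, 11.6 and 6.96 CPM in EN13 and at 891, 784, 240 and 204 CPM in the other excitatory neurons, from 11.7-fold (6.71 to 22.7) lower at E19 to 29.4-fold (11.5 to 108) lower at P21. Zfhx3, a large zinc-finger homeobox factor, was at 215, 48.6, 34.8 and 40.0 CPM against 1469, 888, 457 and 554 CPM. Both low levels were shared with other subtypes. Averaged over stages, Tcf7l2 was at 35.8 CPM in EN13, 35.2 CPM in EN4, 42.1 CPM in EN6 and 48.4 CPM in EN5. Zfhx3 averaged 84.6 CPM in EN13 and 56.9 CPM in EN10. Sox6 was at 12.7, 10.8, 16.0 and 20.9 CPM against 281, 223, 528 and 268 CPM, and EN9, the highest of these, was at 1254 to 2724 CPM. The receptor genes Erbb4 (139, 75.6, 194 and 219 CPM against 1161, 1017, 1187 and 1220 CPM) and Htr2c (6.33, 10.8, 2.90 and 38.3 CPM against 73.1, 157, 138 and 373 CPM) encode a neuregulin receptor and a serotonin receptor. Tmem132b, Tmem132d, Tox and Cdh18 completed the 10, and of these 10 genes only Tmem132d was lowest in EN13 among excitatory subtypes at every stage.

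Gene lists of known function placed these values in context. The 32 lists held 669 genes, of which 381 averaged at least 20 CPM in the higher group. Of these, 14 (3.67%) were higher and 23 (6.04%) lower in EN13 by a log2 ratio of 1 in every stage, against 43 of 7299 (0.589%) and 83 of 7299 (1.14%) of all genes at that level. The lists were chosen with earlier results of these data known, so the shares are not independent evidence. The median ratio over all 7299 genes was -0.01.

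Transcription factors of midbrain and neighbouring regions were the list with most genes past that ratio in both directions. Of 42 passing members, 9 were higher in every stage (Etv1, Tfap2a, Tfap2b, Neurod6, Tshz2, Ebf1, Satb1, Cux2 and Irx5) and 6 were lower (Tcf7l2, Zfhx3, Zfhx4, Pbx3, Foxp2 and Ebf2), while the list median was 0.03. Tfap2a, the AP-2 relative of Tfap2b, was at 57.0, 54.0, 36.3 and 22.6 CPM in EN13 against 4.13, 2.52, 4.56 and 2.49 CPM, on 9 to 25 UMIs a stage. Neurod6, a factor of cortical projection neurons, was at 63.3, 27.0, 26.1 and 8.70 CPM against 3.43, 2.24, 2.24 and 0.499 CPM, on 5 to 18 UMIs. With 20 CPM added in place of 5, Tfap2a (0.92) and Neurod6 (0.49) no longer reached the ratio of 1, and Tfap2a turned to -0.39 at 2000 UMIs. Ebf1, an early B-cell factor, was at 2455, 2198, 2056 and 1612 CPM against 865, 739, 876 and 590 CPM, while its relative Ebf2 was at 152, 75.6, 20.3 and 12.2 CPM against 336, 187, 283 and 122 CPM. Cux2, known from upper cortical layers, was at 456, 448, 412 and 376 CPM against 199, 171, 156 and 168 CPM.

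**Figure D4:**
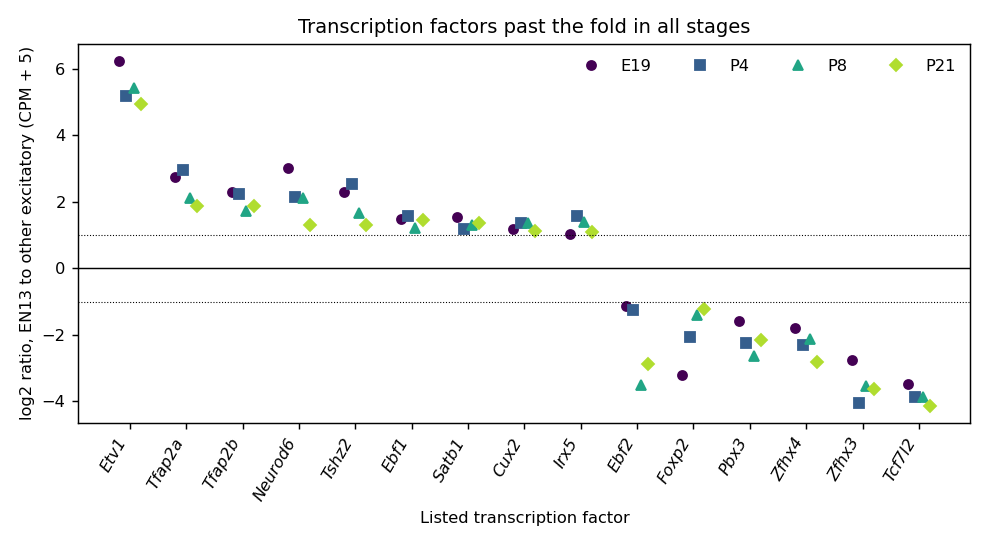
log2 ratio of EN13 to the other excitatory neurons (CPM with 5 added) at each stage, for the 9 transcription factors that were higher and the 6 that were lower by 1 or more in all 4 libraries, with dotted lines at 1 and -1. Etv1 lies between 4.94 and 6.23, and Tcf7l2 between -4.13 and -3.47.

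Wiring and receptor lists together held more genes below the ratio than above it, as did all genes. Of all 7299 genes at that level, 43 (0.589%) were higher and 83 (1.14%) lower, the background for every list in these comparisons. The difference of each list from that background was not tested. In axon guidance, 1 of 65 passing genes was higher (Epha7) and 2 were lower (Slit3 and the netrin receptor gene Unc5c), with a list median of -0.12. Among 73 synapse organisers, Sdk1 was higher, and Il1rapl2, Kirrel3 and Cntnap5b were lower (median 0.04). Among 21 cadherins and protocadherins, Cdh22 was higher, and Cdh18, Cdh4 and Pcdh15 lower (median -0.48). Of 22 glutamate receptor genes, the metabotropic Grm3 was higher (911, 616, 606 and 296 CPM against 317, 263, 217 and 128 CPM) and the kainate subunit Grik3 lower (63.3, 81.0, 119 and 47.0 CPM against 189, 232, 258 and 180 CPM), with a median of 0.04. No gene was higher and 3 of 11 were lower among modulator receptors: Htr2c, the muscarinic Chrm2 (25.3, 32.4, 81.2 and 17.4 CPM against 182, 173, 220 and 286 CPM) and Htr7 (median -0.98). Of 38 potassium channel genes, Kcnq5 and the subunit gene Kcnab1 were lower (median -0.14). Of 31 sodium, calcium and HCN channel genes and 18 GABA and glycine receptor genes, none passed in either direction (medians -0.15 and -0.30).

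Neuropeptides and their receptors were sparse in EN13 and in the other excitatory neurons. Only 11 of 48 listed genes reached 20 CPM in either group, against 381 of 669 over all lists. Of the 11, the prolactin receptor gene Prlr and the substance P receptor gene Tacr1 were lower in EN13, with none higher. Prlr gave 0, 2, 2 and 0 UMIs in EN13 and 40.1, 43.0, 35.3 and 23.6 CPM in the other excitatory neurons, where EN4 was highest. The list median was -1.47, and -0.89 with 3 counts in place of 0. Tacr1 was at 12.7, 10.8, 26.1 and 19.1 CPM against 38.2, 48.5, 76.6 and 70.5 CPM, and its direction was not kept at 2000 UMIs.

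Markers of other neurons and cell types were given the same treatment, to show which could be present in the dissection. For thalamus markers 8 of 12 genes passed, Tcf7l2 and Nwd2 were lower and none was higher, and Gbx2 was at 0 in EN13. The thalamus list still summed to 5303, 4213, 4384 and 4312 CPM in EN13, with Rora the largest. In the other excitatory neurons its sum was 3822, 3738, 4493 and 4157 CPM. Of the cerebellar granule list, Gabra6, Neurod1, Pax6, Fat2 and Slc17a7 were at 0, and its summed level of 461 to 1019 CPM was almost wholly Etv1. Of the cortical projection list, Tbr1, Emx1, Fezf2 and Slc17a7 were among the genes at 0, and Neurod6 and Cux2 were higher. That list summed to 975, 805, 741 and 598 CPM in EN13 and to 415, 319, 381 and 299 CPM in the other excitatory neurons. In the list of mesencephalic trigeminal and sensory neurons, the mechanosensitive channel gene Piezo2 was higher (247, 346, 226 and 50.4 CPM against 46.7, 42.8, 58.4 and 19.5 CPM), as in EN4 (271, 257, 240 and 75.0 CPM), and Prph, Isl1, Runx3, Avil and Scn10a were at 0. The trigeminal and sensory list summed to 1069, 1420, 1227 and 953 CPM in EN13, with Ntrk3 the largest. In the other excitatory neurons its sum was 1080, 920, 1124 and 860 CPM. Dopamine, serotonin and motor lists summed to 0 to 31.6 CPM in every stage. Of their enzymes and transporters, Th, Slc6a3, Tph2, Slc6a4 and Slc18a3 were at 0, and Slc18a2 was not. Ret, Slc18a2 and Calca were the largest members of the dopamine, serotonin and motor lists in EN13. Astrocyte markers summed to 108 to 265 CPM in EN13 and 97.0 to 170 CPM in other excitatory neurons, and oligodendrocyte markers to 43.2 to 289 and 55.0 to 302 CPM, both with the highest oligodendrocyte value at P21. Choroid plexus and ependymal markers were at 75.6 CPM in EN13 at P4, all from Ttr, at 77.8 CPM in the other excitatory neurons of that library, and at 0 in EN13 at the other stages. The part of free RNA in these levels was not tested.

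With genes at 100 CPM or more, EN4, EN10 and EN1 were the subtypes whose profiles were most like EN13. Likeness was the Pearson correlation across genes of log2(CPM + 5), over 2979 to 3565 genes at 100 CPM or more in any neuron subtype, averaged over the 4 stages. It was 0.884 with EN4, 0.870 with EN10 and 0.869 with EN1, with EN3 next at 0.855. The values share library and gene set, and genes are not independent replicates. With a minimum of 20 CPM the order was EN4 (0.909), EN1 (0.908) and EN3 (0.900), so EN10 was not among these. The values of EN10 and EN1 differed by less than their range over stages (0.845 to 0.891 and 0.849 to 0.890).

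Compared subtype by subtype, EN13 differed from its neighbours by small sets of genes, ranked as above and named after their values were seen. Against EN4, 36 of 2114 genes were higher in every stage (1.70%) and 46 lower (2.18%). Etv1 led the higher genes (EN4 at 55.0, 59.6, 71.3 and 17.8 CPM), followed by Cdh22 and Dach1, and Slit3, Sox6, Erbb4 and Prlr led the lower ones, with EN4 holding 326, 282, 321 and 229 CPM of Slit3. Against EN10, with which EN13 shared a reference label, 20 of 2107 genes were higher (0.949%) and 34 lower (1.61%). Tfap2b led, then Etv1, Mpped2 and Tfap2d, which was at 146, 281, 128 and 108 CPM in EN13 and 34.8, 3.99, 6.27 and 1.85 CPM in EN10. On the lower side were Slit3, Ltbp1, Prkd1, the stem cell factor receptor gene Kit (12.7, 5.40, 10.2 and 5.22 CPM against 205, 73.8, 161 and 126 CPM) and Ebf2. Against EN1, 38 of 2104 genes were higher (1.81%) and 50 lower (2.38%), led by Etv1 and by Slit3.

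Within EN13, genes of neuronal growth were lower in the P21 library than in the E19 library, and so they were in the other excitatory neurons. Of 2442 genes at 100 CPM or more at either end, 292 (12%) were higher at P21 by a log2 ratio of 1 or more and 323 (13.2%) lower. In the other excitatory neurons these were 141 (6.24%) and 217 (9.60%) of 2261 genes. These shares rest on unlike depth, since 1 UMI stood for 6.33 CPM in EN13 at E19 and 0.0879 CPM in the other excitatory neurons, and the part of counting error in the difference was not tested. With each nucleus thinned to 2000 UMIs, the EN13 counts were 530 and 531, among the genes that passed after thinning. The median ratio over the 2442 genes was -0.02 in EN13 and 0.03 in the other excitatory neurons.

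Of 14 immature neuron genes that passed, 13 were lower at P21 in EN13 and none higher, with a median log2 ratio of -3.55. In the other excitatory neurons 14 of 14 were lower (median -3.14). Over all 2442 genes, 13.2% were lower and 12% higher in EN13. A gene passed with 100 CPM at either end, so one that passed at a single end had its direction fixed in advance, here and in the stage lists below. This holds for Tubb2b, Tubb5, Tmsb10 and Nnat, which passed at E19 alone. It also holds for Camk2a and, in the lists below, for Epha5, which passed at P21 alone. The tubulin gene Tubb2b was at 671, 454, 165 and 1.74 CPM in EN13 and at 704, 335, 131 and 5.13 CPM in the others. Tubb5 was at 563, 356, 133 and 27.8 CPM, Tmsb10 (thymosin beta) at 430, 178, 103 and 12.2 CPM, and the imprinted gene Nnat at 563, 508, 190 and 26.1 CPM. For these genes each stage was lower than the one before it. Tubb2b, Tubb5, Actg1, Tmsb10 and Fabp7 have near-identical relatives or pseudogenes to which their reads may be assigned. Of 16 mature neuron genes, 7 were higher at P21 and 1 lower (Mapt), with a median of 0.81 in EN13 and 1.13 in the others. Examples chosen after their values were seen are Snap25, a vesicle fusion protein gene, at 209, 243, 267 and 593 CPM, and Camk2a, a postsynaptic kinase gene, at 82.3, 130, 145 and 303 CPM.

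Wiring genes went both ways between the E19 and P21 libraries. Of 36 axon guidance genes that passed in EN13, 7 were higher at P21 and 9 lower (median -0.30), against 0 and 7 in the other excitatory neurons (median -0.34). Over all 2442 genes, 12% were higher and 13.2% lower in EN13, which is the background for each list here. The 7 were Epha4, Epha5, Sema5a and the contactin genes Cntn3, Cntn4, Cntn5 and Cntn6, whose products are surface molecules of growing axons and synapses. The ephrin receptor gene Epha5, which passed at P21 alone, was at 94.9, 108, 157 and 299 CPM in EN13. In the other excitatory neurons it was at 437, 538, 506 and 590 CPM. Cntn5 was at 595, 1393, 1416 and 1442 CPM against 2617, 2832, 2334 and 1688 CPM. For Epha5 and Cntn5, chosen after their values were seen, EN13 lay below the other excitatory neurons at every stage, with a log2 ratio past -2 at E19 and short of -1 at P21. Of 19 cadherins and protocadherins, 4 were higher (Cdh10, Cdh11, Cdh12 and Pcdh9) and 6 lower, against 0 and 1 in the other excitatory neurons. Of 21 glutamate receptor genes, 2 were higher (Gria3 and Grin1) and 4 lower (Gria1, Grin3a, Grm3 and Grm4), with medians of -0.36 in EN13 and 0.03 in the others, and these counts were near the background. The differences between the groups in these counts were not tested.

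The 8 genes with the largest differences upward were Gm28928, Pex5l, Etl4, BC030499, Rasgrf1, Sgpp2, Prr16 and Coro6, all of them on 0 to 3 UMIs at E19. Pex5l, whose product regulates the trafficking of HCN channels (chromosome 3, 32949408 to 33143247, minus strand, GRCm38), was at 6.33, 43.2, 46.4 and 450 CPM in EN13 and at 214, 269, 493 and 903 CPM in the other excitatory neurons. Its fold from E19 to P21 was 71.2, with an interval of 12.7 to 2822 since the E19 value was a single UMI. Etl4 was at 19.0, 243, 530 and 880 CPM and Rasgrf1, a Ras exchange factor gene, at 12.7, 54.0, 158 and 527 CPM. BC030499, with 0 UMIs at E19 and P4, was at 158 CPM at P21, at least 8.34-fold higher. On the lower side Sst, the somatostatin gene, was at 139, 16.2, 13.1 and 0 CPM, at least 26.7-fold lower at P21, and Kcnh8, a potassium channel gene, at 139, 70.2, 62.4 and 1.74 CPM.

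The leading genes of EN13 were mostly lower at P21 than at E19. The log2 ratio was below 0 for 17 of the 20, against 50.8% of all 2442 genes, and -1 or less for 8, against 13.2%: Etv1, Casz1, Tfap2b, Sdk1, AC129186.1, Kirrel, Tshz2 and Gm26883. Sorcs1, Plcl1 and Slc9a9 were above 0 (0.12, 0.58 and 0.37). These 20 genes were chosen on the same EN13 values, so the counts are a description. Intervals of the P21 to E19 fold included 1 for Hgf (0.437 to 1.35) and Zfp536 (0.585 to 1.15). In the other excitatory neurons the leading genes went both ways, with Sdk1 at -1.42 and Cdh22 at -0.75 but Hgf at 1.54 and AC129186.1 at 0.80. Tfap2b was 4.49-fold lower at P21 (3.49 to 5.80) and Casz1 2.96-fold (1.89 to 4.61), with log2 ratios of -2.14 and -1.51 in EN13 and -1.72 and -0.18 in the other excitatory neurons. Transcription factors as a list were lower too, in EN13 13 of 26 passing genes with 1 higher (median -0.95, against 13.2% and 12% of all genes), and in the other excitatory neurons 11 with 0 higher (median -0.74). Slc17a6 itself was 2.03-fold lower at P21 (1.44 to 2.84).

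The P21 to E19 ratio of EN13 was farthest above that of the other excitatory neurons for Prr16, Pex5l, Pla2g4e, Cadps2 and Gpc5, and farthest below it for Adam12, Cdh20, Dock10, Kcnh8 and Cacng3. Gpc5, a heparan sulphate proteoglycan gene (chromosome 14, 115092215 to 116525179, plus strand, GRCm38), was at 152, 924, 389 and 1664 CPM in EN13, 10.96-fold (7.32 to 17.2) higher at P21 than at E19, with P8 below P4. In the other excitatory neurons it was at 657, 930, 1060 and 1064 CPM. Cadps2, which promotes dense-core vesicle release, was at 12.7, 205, 178 and 233 CPM against 43.6, 87.4, 75.8 and 87.2 CPM. EN13 lay above the others at the 3 later stages. Its lower value at E19 rested on 2 UMIs, with an interval of 1.53 to 45.7 CPM that included the 43.6 CPM of the others. Prr16 was at 0, 16.2, 55.1 and 136 CPM against 115, 114, 98.8 and 231 CPM. Pla2g4e, a phospholipase gene, was at 12.7, 64.8, 43.5 and 104 CPM against 60.6, 62.0, 55.0 and 50.5 CPM.

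In the other direction, Dock10, a guanine nucleotide exchange factor gene, was at 316, 200, 209 and 200 CPM in EN13 and at 56.2, 107, 192 and 202 CPM in the others, so that EN13 was higher at E19 and the levels were alike at P21. Cacng3, an auxiliary subunit of AMPA receptors, was at 133, 75.6, 55.1 and 31.3 CPM against 57.2, 50.9, 76.6 and 74.2 CPM. Adam12, a metalloprotease gene, was at 120, 48.6, 62.4 and 17.4 CPM against 46.3, 45.0, 78.4 and 61.1 CPM. Cdh20 was at 101, 16.2, 42.1 and 15.7 CPM against 71.5, 79.3, 86.8 and 99.6 CPM. Adam12 and Cdh20 rested on 19 and 16 UMIs at E19 and on 10 and 9 at P21.

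**Figure D5:**
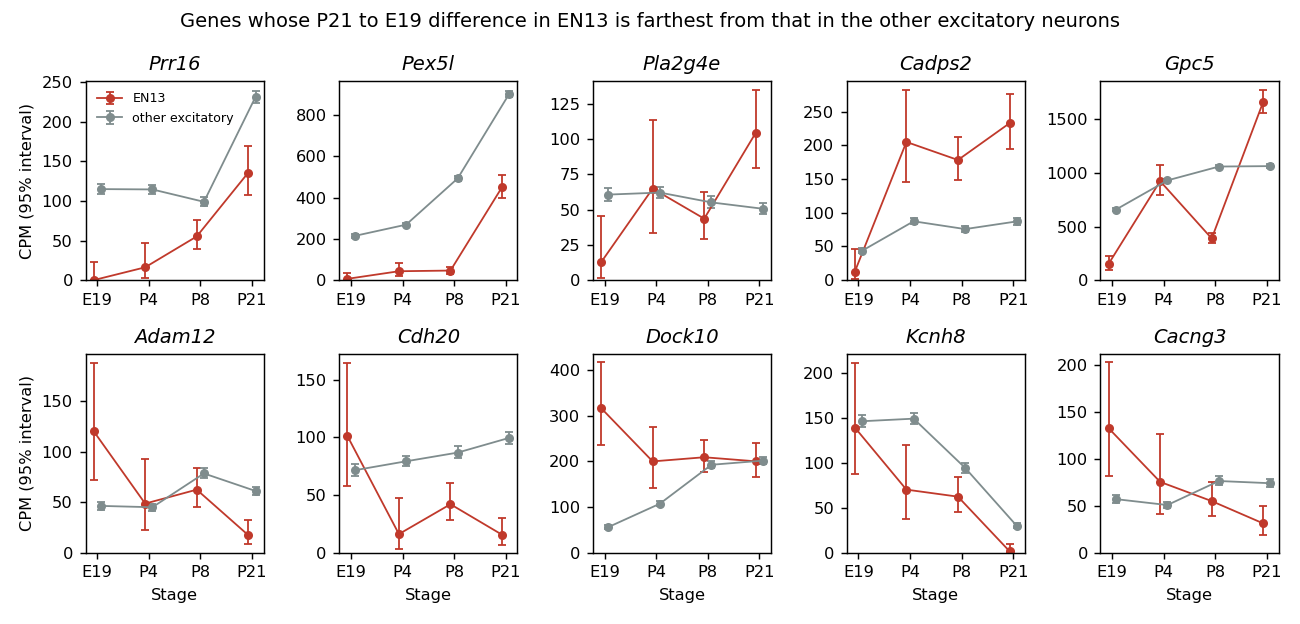
CPM with 95% Poisson intervals by stage in EN13 and in the other excitatory neurons, for the 5 genes whose P21 to E19 ratio was farthest above (upper row) and the 5 farthest below (lower row) that of the other excitatory neurons. Gpc5 reaches 1664 CPM in EN13 at P21, and Dock10 starts at 316 CPM in EN13 and ends at 200 CPM, beside 202 CPM in the others.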

How the data were processed

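Nuclear RNA of 4 libraries was captured with 10x Genomics 3′ chemistry, per the labels. The deposited matrix held UMI counts per gene and nucleus for 31053 genes, not normalised; per the submitters' processing notes it was made with Cell Ranger 3.0.2 and mm10, per the labels with a pre-mRNA reference, so intronic reads were counted. The table deposited by the authors gave stage, class, subtype, cluster number, reference labels, totals of UMIs and genes for each nucleus, and mitochondrial and ribosomal protein UMIs in percent. Another 4 columns of values were not used. The sources used here do not say how nuclei and doublets were filtered, and no further filter or doublet caller was applied.

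UMI counts were summed over nuclei of a library and group and scaled to CPM (Python 3.11.15, NumPy 2.4.6, SciPy 1.17.1, pandas 2.3.3). Log2 ratios were taken after adding 5 CPM to each value, so ratios of low genes are understated. Intervals were exact Poisson (CPM), Clopper-Pearson (shares) and exact conditional (folds), at 95%, and a count of 0 was given a limit of 3 counts per library (for a share, 3 nuclei of the group). The ranking was tested on simulated data. Detection was repeated after thinning nuclei to 2000 UMIs.

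The genes named were the 20 highest and 10 lowest by score at 100 CPM or more, the 8 largest stage differences each way, the 5 farthest from the other excitatory neurons each way, up to 4 list members each way, and Slc17a6, Gad1, Gad2 and Slc32a1. Ranks left out mitochondrial, haemoglobin, ribosomal protein and Y-linked genes, Xist and Tsix. Ebf1, Satb1, Irx5, Cux2, Foxp2, Ebf2, the stage examples of lists, marker genes at 0 and the genes of the subtype comparisons were chosen after their values were seen. Members and lists were chosen with earlier results of these data known. GENCODE M21 (GRCm38) held 31011 of the 31053 gene identifiers (99.9%). Of 78 named genes, 47 overlap a gene on the opposite strand and 39 on the same strand. Stages could not be tested with 1 library each. EN13 and the other excitatory nuclei come from the same 4 libraries and were compared within each, and no test over these pairs was run, since subtypes are drawn from the genes compared.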

Additional observations from a re-analysis of the deposited data

Results flagged for a closer look

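In 4 of the genes named for their stage difference, EN13 lay above the other excitatory neurons at one stage and below them at another, by a log2 ratio past 1 in both directions. The highest and lowest ratios over the stages were 1.29 and -1.56 for Adam12, 1.15 and -1.13 for Cacng3, 1.37 and -1.46 for Cadps2, and 1.03 and -1.76 for Coro6. The lowest ratio of Cadps2 rested on 2 UMIs in EN13 at E19, with an interval (1.53 to 45.7 CPM) that included the level of the others. Coro6 also had few UMIs in EN13 at E19, as given above. Each stage was 1 library, so these differences between stages were not tested.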

How the results depend on the processing

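The labels give no replicate numbers, so no fit with a replicate block was made. Etv1 ranked first under every alternative run, and Casz1 second in all but the 20 CPM minimum; 13 to 20 of the 20 leading genes were retained. Of the 10 lowest, 5 were retained at a 200 CPM minimum, 6 with the other subtypes weighted alike, 7 at 2000 UMIs or without E19, and 8 to 10 under the others. Leaving out 1 library gave 31 to 45 higher and 56 to 62 lower genes, the most higher ones without P21. With a 20 CPM minimum 83 genes were lower. Scaling by median of ratios moved log2 ratios by at most 0.05. Tfap2a and Tacr1 turned direction at 2000 UMIs (to -0.39 and 0.37), and the cause was not tested. As a share of all neurons EN13 was 0.941%, 1.13%, 2.71% and 2.60%, and of all nuclei 0.812%, 0.922%, 2.12% and 1.65%, since the denominators are larger. Genes higher and lower at P21 numbered 1092 and 1227 at a 20 CPM minimum, 134 and 147 at 200 CPM, and 530 and 531 at 2000 UMIs. The number of genes compared depends on the setting, so the counts of genes in this paragraph are not shares and do not measure more or less change. Of the 8 highest and 8 lowest stage differences, thinning retained 3 and 4. Likeness to EN4 was 0.909 at 20 CPM, with EN1 at 0.908 and EN3 at 0.900 next in place of EN10, and 9 list genes were higher with 20 CPM added. Leaving out the 6 nuclei outside cluster 24, chosen after seeing the data, retained 19 of the 20. Depth limits EN13 at E19 and P4, where 100 CPM is few UMIs.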
